A study of Mus musculus with 18 samples.

Results

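Cyclin E1 was switched on in whole mice, and the transcripts that moved the same way in liver, kidney and lung were sought in 1 fit of RNA sequencing counts from all 3 tissues. All 18 of the 18 libraries of the series entered this fit, which took tissue as a block and compared 9 libraries of CCNE-TA mice with 9 libraries of TA mice. CCNE-TA mice carried the rtTA activator and a Ccne1 transgene that it turns on with doxycycline, whereas TA mice carried rtTA alone. Every mouse was on the C57BL/6 background, received doxycycline from 3 weeks of age and was killed at 4 months, so that rtTA, drug and age were shared by both genotypes. Each tissue of each genotype gave 3 libraries of whole tissue RNA. The promoter driving rtTA was not given in the sources used here, nor was a statement of which libraries came from 1 mouse. P-values below therefore treat the 18 libraries as independent and measure only the spread between them. In whole tissue, more cells of a type and more RNA per cell cannot be told apart.

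Cyclin E1 is the regulatory subunit that activates the kinase CDK2 late in G1, and it helps cells start DNA replication. CDK2 phosphorylates the retinoblastoma protein RB, which frees E2F factors to transcribe replication genes. The later wave of G2 and mitosis genes is controlled by the MuvB complex with B-MYB and FOXM1, and its repression in resting cells acts through a promoter element called CHR. Hepatocytes, kidney tubule cells and lung epithelium of adult mice are mostly quiescent, and excess cyclin E is known for causing replication stress.

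Total counts per library ran from 41597623 to 155323865 in lung, from 26214869 to 61954486 in liver and from 20352770 to 43202066 in kidney. Defining markers matched the labelled tissues, since albumin (Alb) stood at 117900 to 228500 CPM (read counts scaled to library size) in the 6 livers, Umod at 1049 to 2559 CPM in the 6 kidneys and Sftpc at 7154 to 13340 CPM in the 6 lungs. Female-specific Xist exceeded 100 CPM in 5 of 9 TA libraries and 6 of 9 CCNE-TA libraries. In liver TA 2 it was at 0.470 CPM, against 1056 CPM in kidney TA 2 and 496 CPM in lung TA 2, so libraries that share a number need not share a mouse. For TA 1, TA 3 and CCNE-TA 1, 2 and 3, Xist lay on the same side of 100 CPM in all 3 tissues. Whether these libraries share mice was not tested. Over 12387 genes, deviations from the group mean of CCNE-TA libraries with the same number correlated at 0.20 to 0.57 between liver and kidney at 0.28 to 0.29 between kidney and lung and at 0.08 to 0.17 between liver and lung, against -0.29 to 0.15 for all TA pairs of tissues. Liver TA 2 and TA 3 were low in Xist, but liver CCNE-TA 1 and 2 were high, and sex was therefore unevenly spread over the livers. Kidney CCNE-TA 1 and lung CCNE-TA 1 stood apart from the other libraries of their groups in immune genes, as described with those genes.

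The genes called in the common fit were few, and 16 of the 18 that rose belonged to lists of cell division genes. Both counts include Ccne1, the induced gene itself. Of 17155 tested genes, 18 rose (0.105%) and 1 fell (0.00583%) in edgeR's quasi-likelihood test at a Benjamini-Hochberg adjusted p under 0.05. At an unadjusted p under 0.05 there were 1512 higher and 1034 lower genes. All 18 raised genes were higher by at least 0.5 log2 in each of the 3 tissues, and 12 of them by at least 1 log2. They were Ccne1, the kinase and cyclin genes Cdk1, Ccnb1 and Ccnb2, the mitotic exit activator Cdc20, and Birc5, Tpx2, Hmmr, Nusap1, Kifc1, Prc1, Nuf2, Dlgap5 and Psrc1 of the spindle and kinetochore. The others were Mki67 and Esco2 of mitotic chromosomes, the erythroid gene Hemgn and the noncoding transcript AA465934. Tested in 1 tissue at a time, in the fit of group means, all 18 passed in liver (17.0% of all genes rose there), Ccne1 alone in kidney (0.0117%), and Ccne1, AA465934, Mki67 and Hemgn in lung (0.0350%). All 18 thus passed in liver by itself, whereas for most of them the changes given for kidney and lung did not. In fits that left out 1 tissue, 3 genes rose without liver, 6 without kidney and 30 without lung. Over all tested genes, 455 (2.65%) were higher by at least 0.5 log2 in each tissue, of which 84 were in the lists of cell division genes, and 81 (0.472%) were lower. With no size asked for, 3161 genes (18.4%) were higher in each tissue and 1985 (11.6%) were lower. The median change of all tested genes was 0.03 log2 in the common fit, 0.08 in liver, 0.00126 in kidney and 0.03 in lung.

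How many genes were called depended strongly on the test and on single libraries. DESeq2 called 203 raised and 94 lowered genes, whereas leaving out 1 library at a time left between 6 and 30 raised genes. With the library number as a replicate block within tissues, 4 genes rose. With 1 mean over the tissues per number, 3 against 3, limma called 60 raised and 13 lowered genes, which included 17 of the 19 of the common fit. AA465934 and Mki67 passed the threshold in all 37 other settings that were run, Hemgn passed in all 36 in which it was tested, and Ccne1 in 36 of 37.

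**Figure D1:**
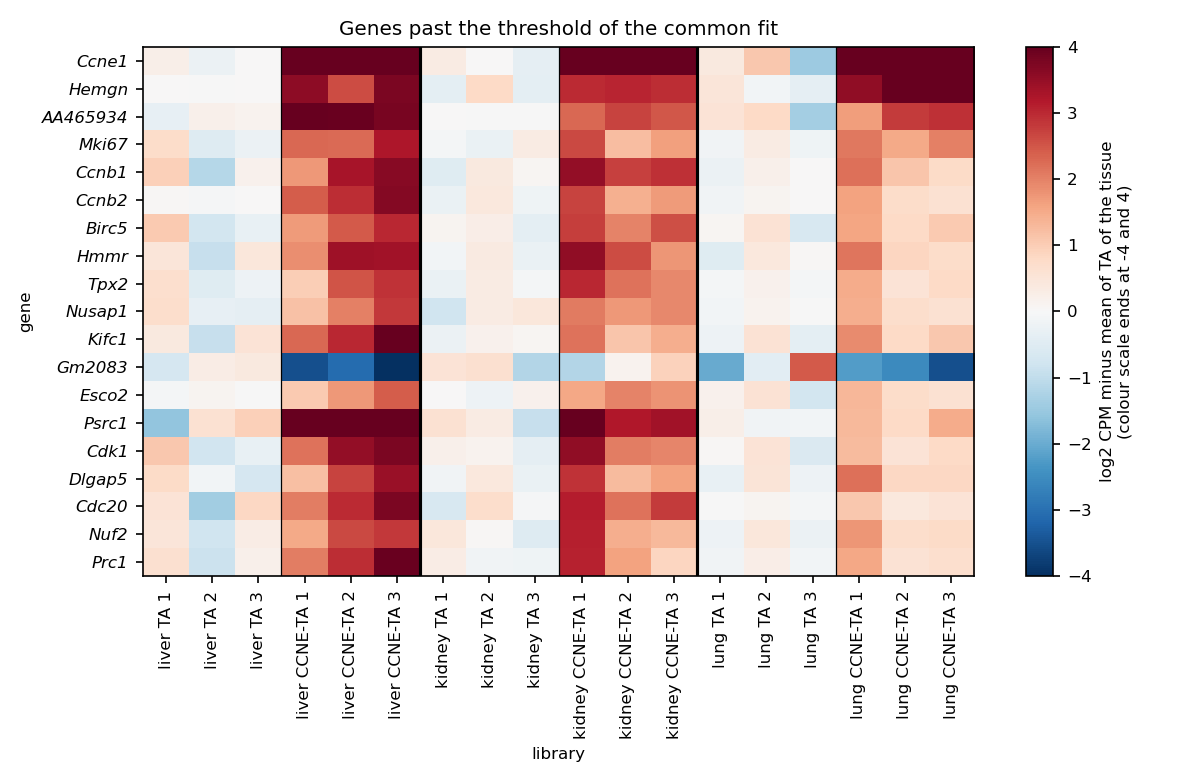
Each cell shows log2 CPM of 1 library minus the mean of the TA libraries of its tissue, for the 19 genes past the threshold of the common fit (rows) in the 18 libraries (columns, grouped by tissue and genotype). The 18 raised genes are higher in all 9 CCNE-TA libraries than in the TA libraries of the same tissue. Colours are clipped beyond 4 log2 in either direction, as for Ccne1 in CCNE-TA and Psrc1 in liver CCNE-TA.

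The targeted gene came first in the order of p. Ccne1 lies on mouse chromosome 7 (38097984 to 38107534, minus strand, GRCm38), and its counts do not separate the transgene from the resident gene. In liver it was at 4.96, 3.57 and 4.33 CPM in TA and at 519, 368 and 589 CPM in CCNE-TA. Kidney TA libraries had 2.16, 1.72 and 1.32 CPM, and kidney CCNE-TA libraries had 744, 656 and 408 CPM. Lung TA libraries had 2.55, 4.14 and 0.701 CPM, and lung CCNE-TA libraries had 85.6, 45.4 and 52.3 CPM. Every CCNE-TA library thus lay above every TA library, and the 3 induced lungs lay below the 6 other induced libraries. The common change was 6.63 ± 0.57 log2 (SE, adjusted p = 1.64e-05, edgeR quasi-likelihood), with 6.84 in liver, 8.44 in kidney and 4.62 in lung. These tissue effects differed from each other (interaction adjusted p = 0.00906, edgeR). In the exact two-sided permutation test, which shuffled genotype within each tissue, Ccne1 reached 0.00025, the smallest p that 8000 arrangements allow. In all, 18 of the 19 called genes reached this value. Genes without overlap in each tissue must reach it, so it is no separate support for calls made on the same libraries.

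The partners of cyclin E1 were not called. Of 25 tested genes of the cyclin E-CDK2 module and its turnover, Ccne1 alone rose, and the list's median change was 0.11 log2. The kinase Cdk2 changed by 0.10 ± 0.14 log2 (SE, adjusted p = 0.737, edgeR), and its level ran from 11.7 to 19.2 CPM in TA and from 9.66 to 27.8 CPM in CCNE-TA. The second cyclin E gene, Ccne2, changed by 0.09 ± 0.33 log2 (SE, adjusted p = 0.900, edgeR). Among the next members by p, the CDK inhibitor Cdkn1a (p21) changed by 2.22 ± 0.50 log2, the S and G2 cyclin Ccna2 by 1.27 ± 0.30 and the phosphatase gene Cdc25c by 2.34 ± 0.58 (SE, adjusted p of 0.0942, 0.1003 and 0.126, edgeR).

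**Figure D2:**
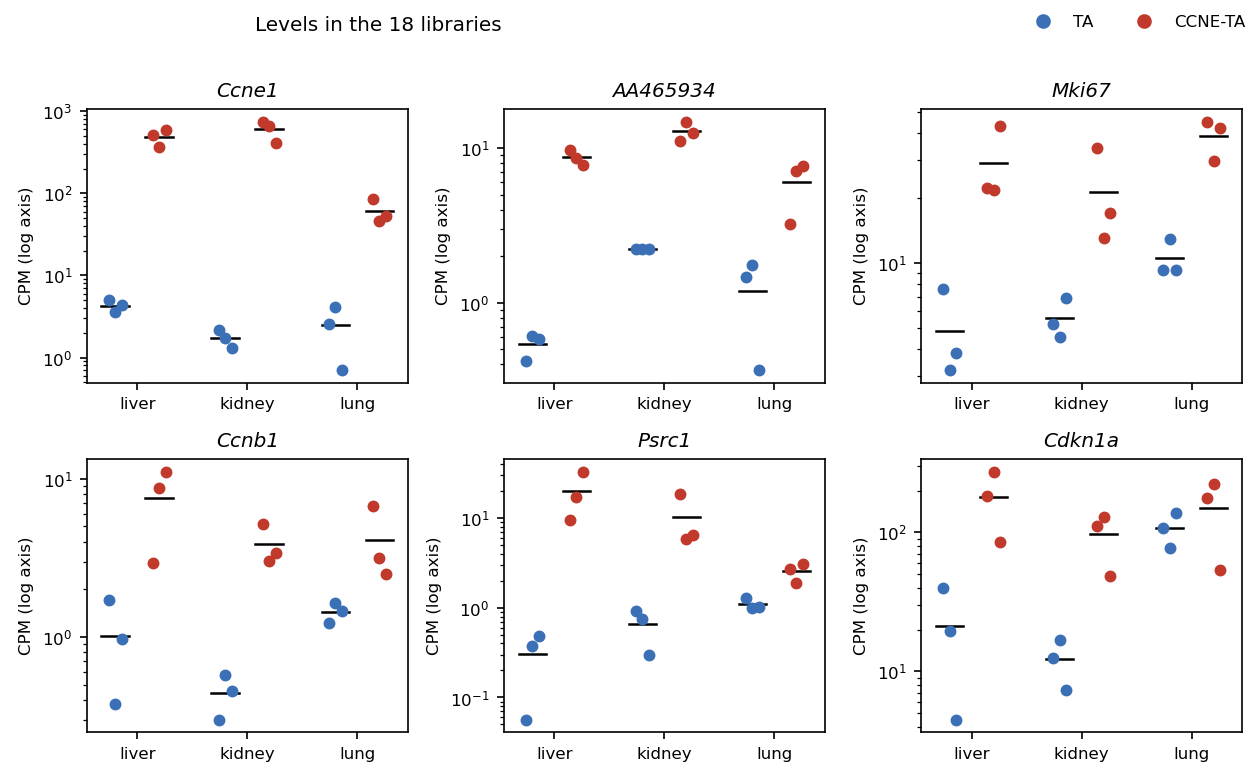
Points give CPM on a log axis for 6 genes in each library (3 TA and 3 CCNE-TA per tissue, in the order of their numbers), and bars give the group means. Ccne1, AA465934, Mki67, Ccnb1 and Psrc1 show no overlap of the genotypes within any tissue, whereas Cdkn1a overlaps in lung, where TA runs from 77.5 to 139 CPM and CCNE-TA from 53.5 to 223 CPM.

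Mki67 rose in the common fit, in liver (adjusted p = 0.000591, edgeR) and in lung (0.0380), but not past the threshold in kidney (0.217). It encodes Ki-67, a protein that coats mitotic chromosomes and marks cycling cells, and lies on chromosome 7 (135689784 to 135716361, minus strand). In liver its level was 7.60, 3.20 and 3.84 CPM in TA and 22.3, 21.8 and 43.0 CPM in CCNE-TA. Kidney had 5.26, 4.56 and 6.93 CPM in TA and 34.1, 13.1 and 17.1 CPM in CCNE-TA, and lung had 9.36, 13.0 and 9.28 CPM in TA and 45.2, 29.6 and 42.2 CPM in CCNE-TA. The lowest induced library of each tissue lay above its highest control. The common change was 2.13 ± 0.23 log2 (SE, adjusted p = 1.57e-04, edgeR), with 2.56 in liver, 1.94 in kidney and 1.89 in lung. The interaction test gave an adjusted p of 0.652 (edgeR).

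The B-type cyclins rose in the common fit and in liver alone, and their changes were smaller in lung than in liver or kidney. Ccnb1, whose protein drives entry into mitosis with CDK1, lies on chromosome 13 (100778650 to 100786570, minus strand). Liver TA libraries had 1.71, 0.376 and 0.973 CPM, and liver CCNE-TA libraries had 2.92, 8.79 and 11.1 CPM. Kidney went from 0.298, 0.573 and 0.452 CPM to 5.19, 3.02 and 3.42 CPM, and lung from 1.23, 1.65 and 1.47 CPM to 6.77, 3.14 and 2.49 CPM. Again the genotypes did not overlap in any tissue. The change was 2.47 ± 0.37 log2 (SE, adjusted p = 0.00876, edgeR), with 2.87, 3.11 and 1.51 log2 in liver, kidney and lung (adjusted p of 0.00218, 0.209 and 0.625 for the single tissues). Ccnb2, its close relative on chromosome 9, was at 1.08 to 1.15 CPM in liver TA and 6.19 to 14.6 CPM in liver CCNE-TA, with a common change of 2.05 ± 0.32 log2 (SE, adjusted p = 0.0129, edgeR). In lung the change of Ccnb2 was 1.05 log2, from 2.04 to 2.43 CPM in TA up to 3.42 to 6.83 CPM in CCNE-TA.

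The kinase CDK1 and the proteins that act with it followed. Cdk1 went from 4.35, 1.18 and 1.65 CPM to 9.33, 23.5 and 28.1 CPM in the livers. In lung the margin was narrow, because the lowest induced library had 4.575 CPM and the highest control 4.573 CPM. Cdk1 rose in the common fit (adjusted p = 0.0367, edgeR), with 3.06 log2 in liver, 2.70 in kidney and 0.84 in lung. Cdc20, which activates the ubiquitin ligase APC/C at the metaphase to anaphase step, rose by 2.07 ± 0.38 log2 (SE, adjusted p = 0.0367, edgeR), with 2.83 in liver, 2.66 in kidney and 0.72 in lung. Birc5 (survivin), a subunit of the chromosomal passenger complex, rose by 1.94 ± 0.31 log2 (SE, adjusted p = 0.0145, edgeR). The kinase of that complex, Aurkb, also had no overlap in any tissue but missed the threshold, at 1.64 ± 0.38 log2 (SE, adjusted p = 0.1003, edgeR). Over the list of mitotic kinases, cyclins and APC/C activators, 5 of 30 tested genes rose, against 0.105% of all tested genes, and 0 fell. The median change was 1.31 log2, and 25 of 30 were higher in all 3 tissues, against 18.4% of all tested genes.

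Genes of the spindle and kinetochore formed the largest group of raised genes. Of 60 tested members, 8 rose, against 0.105% of all tested genes, and 0 fell. In each tissue 52 were higher, against 18.4% of all tested genes. The medians were 1.92 log2 in liver, 1.22 in kidney and 0.84 in lung. Hmmr, a spindle and hyaluronan-binding protein, rose by 2.37 ± 0.38 log2 and Tpx2, a spindle assembly factor that activates Aurora A, by 1.88 ± 0.31 (SE, adjusted p of 0.0145 and 0.0160, edgeR). Tpx2 in lung was at 3.02, 3.58 and 2.99 CPM in TA and at 8.91, 4.71 and 5.51 CPM in CCNE-TA, and lung CCNE-TA 1 was thus the highest. Nusap1, a microtubule-binding protein of the spindle, rose by 1.62 ± 0.27 log2 (SE, adjusted p = 0.0253, edgeR). Nuf2, part of the NDC80 complex that ties kinetochores to microtubules, rose by 1.89 ± 0.35 log2, and Dlgap5, which stabilises kinetochore fibres, by 2.04 ± 0.37 (SE, adjusted p of 0.0367 for both, edgeR). Prc1, which bundles microtubules in the central spindle, rose by 2.05 ± 0.39 log2 (SE, adjusted p = 0.0434, edgeR), and 11.1% of its exon bases overlap Rccd1. Kifc1, a minus-end directed kinesin, rose by 2.02 ± 0.36 log2 (SE, adjusted p = 0.0367, edgeR), but its near-identical copy Kifc5b makes the split of reads between them uncertain. Kifc5b changed by 1.62 ± 0.40 log2 (SE, adjusted p = 0.125, edgeR).

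Psrc1 had the widest range over the tissues among the raised mitotic genes. Its product binds microtubules of the spindle, and the gene also belongs to the list of p53 targets. Liver TA libraries had 0.0561, 0.376 and 0.486 CPM, whereas liver CCNE-TA libraries had 9.59, 17.3 and 33.1 CPM. Kidney went from 0.932, 0.757 and 0.301 CPM to 18.7, 5.83 and 6.52 CPM, and lung from 1.29, 0.986 and 1.02 CPM to 2.72, 1.91 and 3.12 CPM. The changes were 6.12 log2 in liver, 3.95 in kidney and 1.23 in lung. They differed between tissues (interaction adjusted p = 0.0118, edgeR). The common change was 3.63 ± 0.66 log2 (SE, adjusted p = 0.0367, edgeR). Psrc1 and Ccne1 were the 2 of the 19 called genes with such a difference, against 1559 of all tested genes (9.09%).

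Among genes of mitotic chromosomes, Esco2, the acetyltransferase that locks cohesin onto sister chromatids, rose by 1.51 ± 0.27 log2 (SE, adjusted p = 0.0367, edgeR). Top2a, the topoisomerase that untangles sister DNA, changed by 1.90 ± 0.38 log2 and the condensin subunit gene Ncapg by 1.89 ± 0.38 (SE, adjusted p of 0.0652 and 0.0683, edgeR). Top2a in kidney was at 1.72, 2.54 and 2.11 CPM in TA and at 25.1, 4.67 and 4.44 CPM in CCNE-TA, so 1 library was far above its group. In that list of condensin, cohesin and chromatin genes, 2 of 30 rose, against 0.105% of all tested genes, and the median was 0.35 log2.

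Promoters of 5 raised genes are shown because the CHR element is a textbook mark of genes transcribed in G2 and mitosis, and these 5 were chosen after the matches had been seen. Each run is the 250 bases before the RefSeq transcript start in GRCm38.p6, 5′ to 3′ on the strand of the gene, and capitals mark matches to the CHR letters TTTGAA or TTCGAA or to the CCAAT box, written ATTGG where it lies on the other strand. Some of these windows reach up to 26 bases into the transcript that GENCODE annotates. Mki67 is at chr7:135716380-135716629 (minus), Cdk1 at chr10:69352913-69353162 (minus), Cdc20 at chr4:118437344-118437593 (minus), Psrc1 at chr3:108383588-108383837 (plus) and AA465934 at chr11:83291449-83291698 (plus).
Mki67: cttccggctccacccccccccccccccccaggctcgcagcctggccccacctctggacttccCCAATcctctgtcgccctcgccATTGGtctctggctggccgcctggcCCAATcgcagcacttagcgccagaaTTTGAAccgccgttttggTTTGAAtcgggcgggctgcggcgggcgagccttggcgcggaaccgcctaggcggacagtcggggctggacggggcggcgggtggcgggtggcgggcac
Cdk1: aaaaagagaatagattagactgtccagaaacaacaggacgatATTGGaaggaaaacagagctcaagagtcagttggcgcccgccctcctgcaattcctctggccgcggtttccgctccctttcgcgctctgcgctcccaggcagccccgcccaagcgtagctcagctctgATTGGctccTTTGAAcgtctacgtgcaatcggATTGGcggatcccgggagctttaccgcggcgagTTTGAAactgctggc
Cdc20: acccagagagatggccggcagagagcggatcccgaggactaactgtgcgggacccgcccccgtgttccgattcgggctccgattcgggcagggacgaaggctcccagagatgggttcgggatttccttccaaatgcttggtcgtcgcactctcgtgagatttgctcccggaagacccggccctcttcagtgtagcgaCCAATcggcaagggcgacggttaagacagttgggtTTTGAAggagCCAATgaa
Psrc1: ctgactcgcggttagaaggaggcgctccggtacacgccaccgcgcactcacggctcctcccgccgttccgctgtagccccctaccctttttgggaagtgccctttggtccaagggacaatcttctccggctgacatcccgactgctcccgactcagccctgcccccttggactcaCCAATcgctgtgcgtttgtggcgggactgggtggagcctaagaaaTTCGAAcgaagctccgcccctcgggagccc
AA465934: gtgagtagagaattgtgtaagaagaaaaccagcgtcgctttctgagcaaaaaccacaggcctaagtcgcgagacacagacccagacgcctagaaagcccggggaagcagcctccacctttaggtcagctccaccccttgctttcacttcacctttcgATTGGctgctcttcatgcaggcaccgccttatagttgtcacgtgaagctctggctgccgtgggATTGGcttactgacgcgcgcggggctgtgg

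In Mki67, 2 CHR matches lay 116 and 98 bases before the start, downstream of 3 CCAAT boxes. In Cdk1 CHR matches lay 71 and 15 bases before the start, and in Cdc20 1 lay 18 bases before it, whereas Psrc1 held the TTCGAA form 30 bases before its start. AA465934 held 2 CCAAT boxes, 93 and 30 bases before the start, and no CHR letters in the window. For the count over genes, both strands of windows of 300 bases, from 250 before to 50 after the start, were searched. Of the 17 raised genes other than Ccne1, 14 had a window, and 8 of these (57.1%) held the CHR letters, against 14.3% of 12597 windows of all tested genes. A CCAAT box was present in 10 of 14 (71.4%) against 37.8%, and 8 of 14 (57.1%) held at least 2 against 13.6%. E2F letters (TTTCCCGC, TTTGGCGC or TTTGGCGG) were in 0 of 14 windows and in 3.4% of all. Other forms of the E2F site were not searched, so this count does not show that E2F sites are absent. With so few windows it also cannot be told from the share of all. A match is a run of letters and not a shown binding site, and these shares were not tested.

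Replication genes, the classical targets of the E2F factors, had smaller medians than the mitotic and spindle lists. Of 42 tested G1/S target genes 0 rose and 0 fell in edgeR. The median change was 0.30 log2, and 28 were higher in each tissue, against 18.4% of all tested genes. The checkpoint mediator Clspn changed by 1.79 ± 0.38 log2 and the DNA ligase Lig1 by 0.78 ± 0.18 (SE, adjusted p of 0.0729 and 0.1003, edgeR), and both were without overlap in each tissue. For origin licensing and firing, 0 of 30 were called and the median was 0.41 log2. Its licensing factor Cdt1 changed by 0.80 ± 0.20 log2, and the helicase subunits Mcm5, Mcm7 and Mcm2 by 0.88 ± 0.22, 0.35 ± 0.10 and 0.58 ± 0.18 (SE, adjusted p of 0.130 for Cdt1 and Mcm5, 0.198 and 0.235, edgeR). Mcm5 in lung was at 6.83, 7.20 and 6.59 CPM in TA and at 20.6, 7.87 and 7.68 CPM in CCNE-TA, so that the group mean rested mostly on 1 library. None of the 22 genes of the RB and E2F family was called, and their median of 0.09 log2 was close to that of all genes. Rbl2, which encodes the pocket protein p130 of quiescent cells, changed by -1.44 log2 in liver, -0.17 in kidney and 0.15 in lung (interaction adjusted p = 0.00441, edgeR). For homologous recombination, Fanconi and checkpoint genes 0 of 38 were called and the median was 0.53 log2, led by Clspn, the polymerase gene Pole at 1.18 ± 0.26 log2 and Rad51ap1 at 1.65 ± 0.36 (SE, adjusted p of 0.0870 and 0.0871, edgeR). For centriole duplication 0 of 14 were called and the median was 0.18 log2, and Plk4, its master kinase, changed by 0.87 ± 0.22 log2 (SE, adjusted p = 0.140, edgeR).

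**Figure D3:**
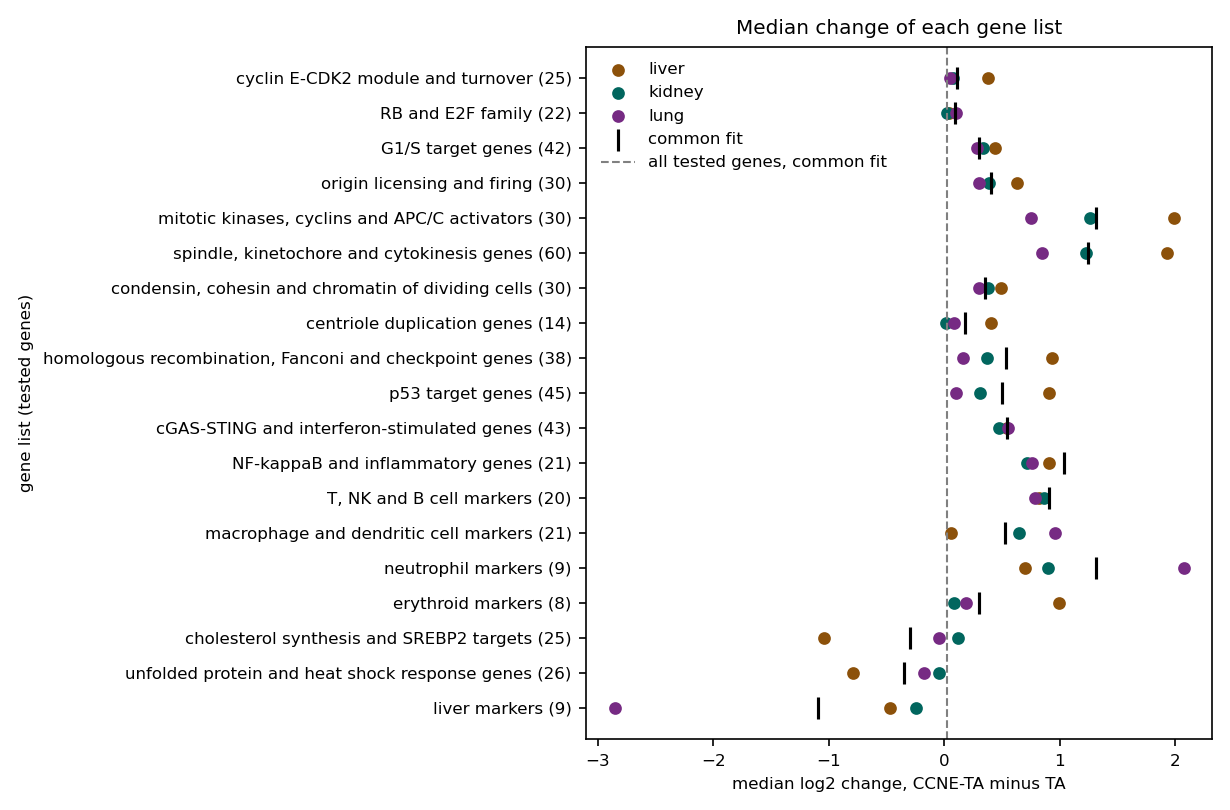
Dots give the median log2 change, CCNE-TA minus TA, of 19 of the 38 gene lists in liver, kidney and lung, the black tick gives the median in the common fit, and the dashed line marks the median of all tested genes in it (number of tested genes in brackets). The mitotic and spindle lists run from 0.75 and 0.84 in lung to 1.99 and 1.92 in liver, the neutrophil markers reach 2.07 in lung, and the liver markers in lung are at -2.85.

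Taking the 9 lists of cell cycle, replication and DNA repair genes together, 16 of 274 tested genes rose (5.84%) and 0 fell. Of all tested genes 0.105% rose, and the 16 include the induced Ccne1. Raised genes were not spread evenly over libraries. Among the 17 raised genes other than Ccne1, liver CCNE-TA 3 was the highest of its group for 15, kidney CCNE-TA 1 for 14 and lung CCNE-TA 1 for 14. The controls varied too, with liver TA 1 the highest for 12 and lung TA 2 for 15. Without kidney CCNE-TA 1 and lung CCNE-TA 1, a comparison added after their immune gene levels had been seen, Ccne1, AA465934, Mki67 and Hemgn were the 4 raised genes and 0 members of the mitotic list and 0 of the spindle list passed. The medians of the mitotic and spindle lists were then 1.14 and 1.03 log2. Without liver TA 2 and TA 3, the control livers low in Xist, the same 4 genes passed and those medians were 1.03 and 0.999 log2.

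A second description asked for no overlap between the genotypes in each of the 3 tissues. This held for 54 genes that were higher (0.315%) and 4 that were lower (0.0233%) in CCNE-TA. Of the 54, 38 belonged to the 9 cell division lists, and the induced Ccne1 is among these 38. The median change of the 54 was 2.46 log2 in liver, 1.85 in kidney and 0.98 in lung. The change was largest in liver for 43, in kidney for 11 and in lung for 0. The interaction test called a difference between tissues for 5 of the 54, against 9.09% of all tested genes. Beyond the called genes they included the centromeric histone gene Cenpa, the checkpoint kinase gene Ttk, the separase gene Espl1, the cytokinesis gene Racgap1, the kinetochore gene Spc24 and the cohesin regulator Cdca5. Ttk changed by 2.21 ± 0.49 log2 and Cenpa by 1.27 ± 0.29 (SE, adjusted p of 0.0871 and 0.0991, edgeR). Cenpa in lung was at 4.40, 4.36 and 3.22 CPM in TA and at 6.42, 4.85 and 5.17 CPM in CCNE-TA, a small but complete separation. Outside these lists the 54 held the chemokine gene Ccl5, the class I gene H2-K1, the early response gene Ier5, Trim47, Mxd3 and Shcbp1, among others.

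**Figure D4:**
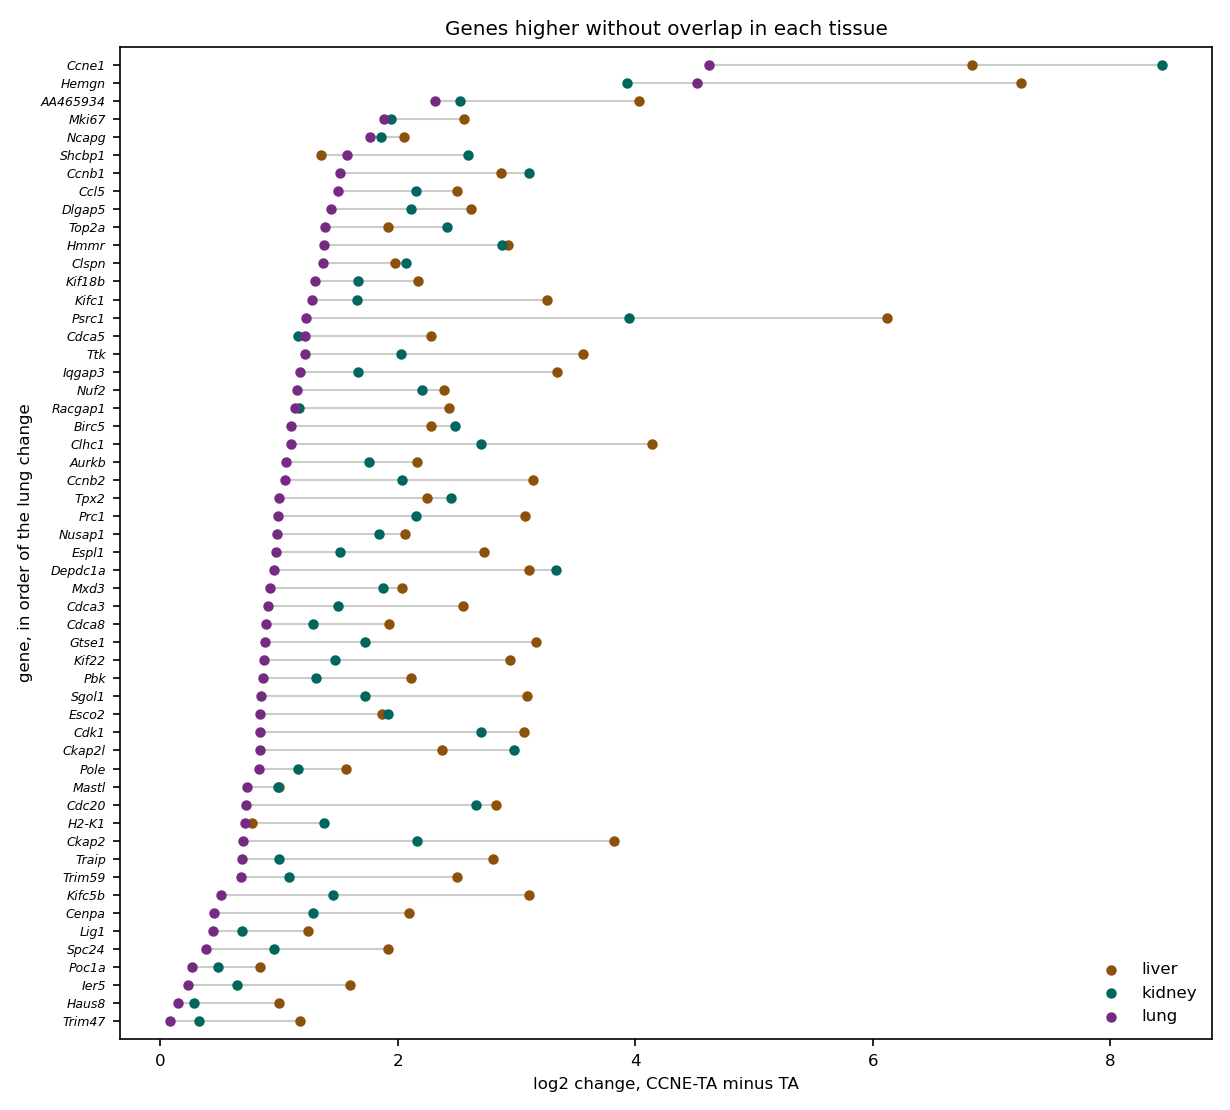
Each row is 1 of the 54 genes whose 3 CCNE-TA libraries all exceeded the 3 TA libraries in each tissue, with the log2 change in liver, kidney and lung as dots joined by a grey line and rows ordered by the lung change. For 51 of the 54 the lung dot is the smallest of the 3, and for 43 the liver dot is the largest. A difference between tissues was called for 5 of the 54.

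AA465934, a noncoding transcript annotated on chromosome 11 (83291699 to 83294632, plus strand), rose in the common fit, in liver (adjusted p = 0.000153, edgeR) and in lung (0.0321), and missed the threshold in kidney (0.134). In liver it was at 0.420, 0.611 and 0.584 CPM in TA and at 9.73, 8.67 and 7.74 CPM in CCNE-TA. The kidney controls were nearly equal, at 2.24, 2.23 and 2.22 CPM, and kidney CCNE-TA had 11.1, 14.8 and 12.6 CPM. Lung went from 1.47, 1.75 and 0.367 CPM to 3.25, 7.11 and 7.64 CPM. In contrast to the mitotic genes, kidney CCNE-TA 1 and lung CCNE-TA 1 were the lowest and not the highest of their groups. The common change was 2.89 ± 0.32 log2 (SE, adjusted p = 1.57e-04, edgeR), with 4.03, 2.52 and 2.31 in liver, kidney and lung.

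Hemgn, which encodes hemogen, a nuclear protein of erythroid cells, was near zero in every TA library. Liver TA libraries summed to 0 counts and liver CCNE-TA libraries to 20, at least 7.77-fold higher against a floor of 3 counts over the group. In kidney the sums were 2 and 32 counts, a ratio of 15.7 (95% interval 4.01 to 135, counting error only), and in lung 17 and 581 counts, a ratio of 20.9 (12.9 to 36.1). Per library, lung CCNE-TA had 0.949, 1.30 and 1.78 CPM against 0.0857, 0.0456 and 0.0334 CPM in TA, and all 9 CCNE-TA libraries exceeded all 9 TA libraries. The adjusted p was 1.46e-04 (edgeR). The other tested erythroid markers were not called. Among them the band 3 anion exchanger Slc4a1 changed by 1.87 ± 0.43 log2 (SE, adjusted p = 0.0991, edgeR), by 2.96 in liver, 0.04 in kidney and 2.85 in lung. Slc4a1 was at 36.0 to 47.9 CPM in kidney TA and 38.9 to 47.8 CPM in kidney CCNE-TA, against 0.224 to 1.79 CPM in liver and lung TA. Which kidney cells hold it was not tested. The erythroid list summed to 150 to 381 CPM in liver TA and 150 to 165 CPM in liver CCNE-TA, to 118 to 193 against 149 to 192 in kidney, and to 104 to 142 against 103 to 146 in lung. The sums overlapped in each tissue, and their part in the change of Hemgn was not tested. The Rh genes Rhag and Rhd, picked after their values were seen, had 2 and 26 counts over lung TA and 95 and 171 over lung CCNE-TA. Rhag had 0 counts in all livers and 0 against 5 in kidney, and Rhd had 2 against 19 in liver and 6 against 27 in kidney, with adjusted p of 0.0870 and 0.0871 in the common fit (edgeR).

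Targets of p53, the factor that halts damaged cells, had their largest median change in liver. Of 45 tested targets 1 rose, Psrc1, against 0.105% of all tested genes. The median change was 0.90 log2 in liver, 0.30 in kidney and 0.10 in lung. For 12 of the 45 the effect differed between tissues, against 9.09% of all tested genes, and 11 of these had a positive change in liver. For the other 33 no such difference was called. Cdkn1a in liver was at 39.9, 19.6 and 4.47 CPM in TA and at 184, 274 and 85.2 CPM in CCNE-TA, and in kidney at 12.5, 16.8 and 7.31 against 112, 129 and 48.9 CPM. Its lung values overlapped, with 108, 77.5 and 139 CPM in TA and 176, 223 and 53.5 CPM in CCNE-TA. The death receptor gene Eda2r changed by 3.57 log2 in liver, 4.17 in kidney and 0.11 in lung (interaction adjusted p = 0.0103, edgeR). Phlda3, an inhibitor of AKT, changed by 3.47, 1.17 and -0.16 log2 (interaction adjusted p = 0.000201, edgeR). Ckap2 and Gtse1, which are p53 targets that also act on mitotic microtubules, had no overlap in any tissue and changed by 2.18 ± 0.42 and 1.90 ± 0.39 log2 in the common fit (SE, adjusted p of 0.0539 and 0.0729, edgeR). The stress cytokine Gdf15 changed by 3.30 log2 in liver, 1.43 in kidney and 0.60 in lung. Cdkn1a, with a common adjusted p of 0.0942, and Eda2r, also with 0.0942, missed the threshold of the common fit.

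Immune gene lists had positive medians, and these were smaller without 2 libraries that had been picked for their high levels of immune genes. Of 43 tested interferon-stimulated and cGAS-STING genes 0 were called. The median was 0.54 log2, and 27 were higher in each tissue, against 18.4% of all tested genes. Bst2 (tetherin), which holds budding viruses at the cell surface, changed by 0.84 ± 0.17 log2 and the interferon-induced Xaf1 by 1.08 ± 0.23 (SE, adjusted p of 0.0689 and 0.0729, edgeR). Cxcl10 in lung was at 1.59, 1.89 and 0.751 CPM in TA and at 43.4, 2.63 and 1.67 CPM in CCNE-TA, and in kidney at 2.65, 2.82 and 5.05 against 55.0, 5.36 and 3.66 CPM. In both tissues library 1 of CCNE-TA was far above and the other two lay near the controls. The summed interferon list was 2024 CPM in kidney CCNE-TA 1 against 949 and 913 in the other induced kidneys and 684 to 960 in the controls. In lung it was 2632 CPM in CCNE-TA 1 against 1559 and 1432, with 946 to 1371 in the controls. Without these 2 libraries the median of the list fell from 0.54 to 0.32 log2. Because the 2 libraries were picked by such levels, a fall was built into this comparison.

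The marker lists of immune cells had smaller medians without these libraries as well, and their choice by immune gene levels made that likely beforehand. For T, NK and B cells 0 of 20 were called and the median of 0.91 log2 became 0.30 without the 2 libraries. For macrophages and dendritic cells 0 of 21 were called, and 0.53 became 0.09. For neutrophils 0 of 9 were called, and 1.31, close to the median of the mitotic list, became 0.53. Neutrophil markers summed to 767 CPM in lung CCNE-TA 1 against 164 and 158 CPM in the other induced lungs and 199 to 278 CPM in the controls. In liver they ran from 18.8 to 520 CPM in TA and were at 819, 201 and 135 CPM in CCNE-TA, and in kidney they were at 11.1 to 20.3 CPM against 41.0, 14.8 and 17.1 CPM. For NF-kappaB and inflammatory genes 0 of 21 were called, and 1.04 became 0.59. The summed T, NK and B cell markers ran from 20.1 to 45.5 CPM in liver TA and from 52.4 to 61.1 CPM in liver CCNE-TA without overlap, whereas they overlapped in kidney (24.4 to 35.3 against 23.2 to 68.4 CPM) and lung (94.3 to 384 against 162 to 466 CPM). Ccl5, a chemokine of T and NK cells, was the member of these lists without overlap in any tissue. It was at 3.06, 4.91 and 3.92 CPM in kidney TA and at 42.1, 5.88 and 5.39 CPM in kidney CCNE-TA, and changed by 2.05 ± 0.47 log2 in the common fit (SE, adjusted p = 0.0991, edgeR). Dividing immune cells also express mitotic genes, and the part of these markers in the raised mitotic genes was not tested.

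**Figure D5:**
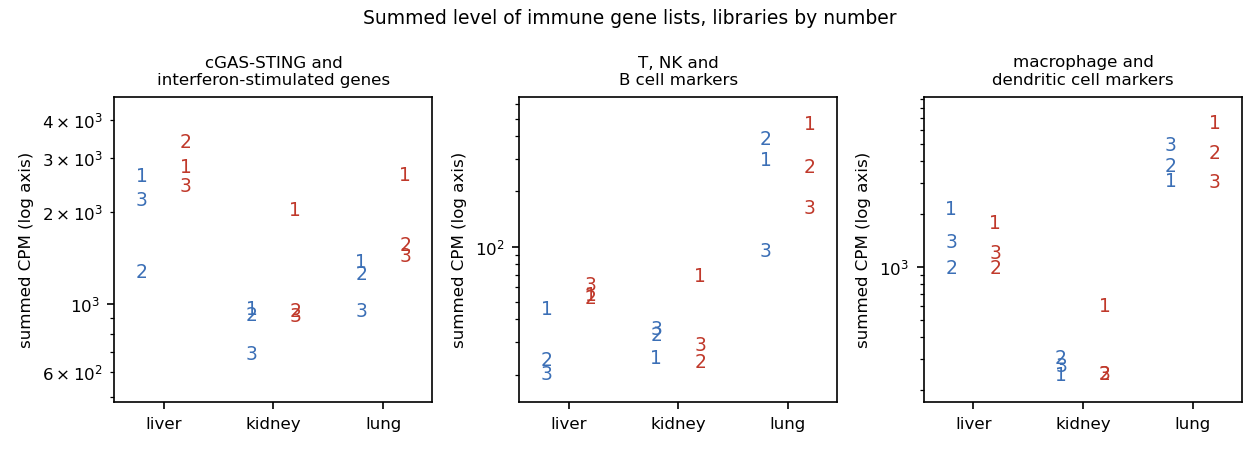
Numerals mark the library numbers of TA (blue) and CCNE-TA (red) at the summed CPM (log axis) of 3 gene lists in liver, kidney and lung. CCNE-TA 1 is the highest kidney and the highest lung library in each list, and in liver the T, NK and B cell list is the one that separates the genotypes.

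The single called gene that fell was Gm2083, a member of the major urinary protein (Mup) cluster on chromosome 4 (61224307 to 61228286, minus strand). Control livers had 374, 716 and 765 CPM and induced livers 51.1, 70.0 and 31.6 CPM, while kidney stayed at or below 0.108 CPM. Lung TA had 0.0600, 0.246 and 2.02 CPM and lung CCNE-TA 0.0470, 0.0318 and 0 CPM. The change was -3.60 log2 in liver, -0.02 in kidney and -4.49 in lung. In the common fit it was -3.61 ± 0.65 log2 (SE, adjusted p = 0.0367, edgeR). Gm2083 passed the threshold in 15 of the 35 other settings in which it was tested. With Xist as a covariate 0 genes were called lowered. Liver TA 2 and TA 3, at 716 and 765 CPM, were low in Xist, as was liver CCNE-TA 3 at 31.6 CPM. Mup genes are near-identical copies, so that the share of reads given to Gm2083 is uncertain. The liver markers, all of secreted or metabolic liver proteins, summed to 337 to 1800 CPM in lung TA and to 46.1 to 223 CPM in lung CCNE-TA, with the highest value in lung TA 3, the library in which Gm2083 was highest as well. Their part in the lung change of Gm2083 was not tested.

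The 4 genes lower without overlap in each tissue were Fam98a, Slc27a5, Pcsk6 and Gpt2, and none of them was called. Fam98a, an RNA-binding protein gene, changed by -0.31 ± 0.10 log2 (SE, adjusted p = 0.232, edgeR), from 53.8, 46.7 and 61.2 CPM in liver TA to 30.7, 39.6 and 37.3 CPM in liver CCNE-TA. In kidney the closest values were 33.1 and 32.3 CPM, and in lung 23.3 and 21.8 CPM. Slc27a5, a bile acid and fatty acid activating enzyme of hepatocytes, changed by -1.74 ± 0.49 log2 (SE, adjusted p = 0.198, edgeR), but in kidney and lung it lay between 0.338 and 23.5 CPM. Gpt2, the mitochondrial alanine aminotransferase, changed by -0.56 ± 0.15 log2, and the proprotein convertase gene Pcsk6 by -0.60 ± 0.15 (SE, adjusted p of 0.172 and 0.116, edgeR).

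Lists with a negative median in liver differed in the other tissues. Of 25 cholesterol synthesis genes 0 were called in the common fit, and the median was -1.04 log2 in liver, 0.12 in kidney and -0.05 in lung. Among 26 unfolded protein and heat shock response genes 0 were called, and 14 were lower in each tissue, against 11.6% of all tested genes. The medians of this list were -0.79, -0.04 and -0.18 log2 in liver, kidney and lung. Its member Hsph1, a co-chaperone of HSP70, changed by -2.04 log2 in liver, 0.09 in kidney and -1.05 in lung. Markers of other tissues varied as well. Pancreas markers summed to 38.8 to 381 CPM in liver TA and 15.3 to 25.3 CPM in liver CCNE-TA. Kidney markers summed to 32.2, 0.564 and 0.681 CPM in liver TA 1, 2 and 3. Liver CCNE-TA 1, 2 and 3 had 54.2, 30.6 and 60.0 CPM, so that liver TA 1 lay within their range. The low livers, TA 2 and TA 3, were also the control livers low in Xist. Fat markers in lung summed to 269 to 436 CPM in TA and 133 to 270 CPM in CCNE-TA. The part of these markers in the common changes was not tested.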

How the data were processed

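Whole liver, kidney and lung RNA was sequenced from TruSeq RNA version 2 libraries, which do not mark strand. The deposited values are raw counts of reads for each gene symbol, with 1 column for each of 18 libraries. Per the submitters' processing notes, TopHat2 2.0.14 with Bowtie2 2.2.6 and featureCounts 1.4.6 of Subread were used with mm10; the annotation and the handling of reads with several matches were not given in the sources used here. Low counts were more often even than odd (64.2% to 71.2% of counts from 1 to 20 per library), and whether this reflects counting both reads of a pair was not tested.

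From the deposited counts, edgeR 4.0.16 (R 4.3.3) fitted tissue and genotype over 18 libraries, with genes kept by filterByExpr, TMM scaling, robust quasi-likelihood dispersion and Benjamini-Hochberg adjustment over all 17155 tested genes at 0.05. A fit of 6 group means gave the change in each tissue and the interaction test. CPM are TMM-scaled, and the permutation test used log2 CPM with a prior count of 2. Of 24062 symbols, 98.5% matched GENCODE M21 for places and lengths, and promoters came from RefSeq (GRCm38.p6). The fit was tested on simulated data with independent libraries and an effect equal in all tissues, a setting simpler than these data. It recovered 77% of simulated 2-fold changes and 96% of 4-fold changes, and 11 of 184 calls (5.98%) were false. Alternatives used limma 3.58.1, DESeq2 1.42.0, other scalings, filters, blocks and left-out libraries. Named genes were Ccne1, up to 12 called genes per direction with a mean log2 CPM of at least 1 and at least 0.5 log2 in each tissue (in order of the smallest tissue change), and up to 4 members per described list by p, beside others named as such; 1 gene that this rule names is not reported here. Genes and lists were chosen with earlier results of these data known. CPM of 3 counts ran from 0.0128 to 0.154 over the libraries, and intervals cover counting error only.

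Libraries that share a number were checked for pairing over 12387 genes. Deviations of TA and CCNE-TA libraries of the same number correlated at 0.40 to 0.58 in kidney, -0.01 to 0.11 in liver and -0.55 to -0.06 in lung, so that the numbers may pair the kidneys but not the livers and lungs, and the fit has no block.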

Additional observations from a re-analysis of the deposited data

Results flagged for a closer look

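Of 115 named genes, 15 had a genotype effect that differed between liver, kidney and lung in edgeR's quasi-likelihood interaction test, against 9.09% of all tested genes, so that their number is close to the background. Of these, 2 passed the common fit, Ccne1 (interaction adjusted p = 0.00906) and Psrc1 (0.0118). Among p53 targets and stress genes, Phlda3 had an interaction adjusted p of 0.000201, Eda2r 0.0103, Ckap2 0.0187, Gdf15 0.0370 and the early response gene Ier5 0.0196. Ier5 was nonetheless higher without overlap in each tissue, by 1.59 log2 in liver, 0.64 in kidney and 0.23 in lung. Trim47 did the same at 1.18, 0.32 and 0.08 log2 with an interaction adjusted p of 0.0436.

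Among genes with a negative change in liver, the pocket protein gene Rbl2 had an interaction adjusted p of 0.00441 and Srebf2, the master regulator of cholesterol synthesis, 0.0187. The chaperone genes Hsph1 and Hyou1 had 0.0406 and 0.0437. Cell type markers were flagged as well: Slc4a1 of the erythroid list at 0.0113, the hepatocyte gene Serpina1c at 0.0240 with -4.26 log2 in lung, and the macrophage receptor gene Trem2 at 0.0489 with 3.19 log2 in liver.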

How the results depend on the processing

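The common fit called 18 raised and 1 lowered gene, and its sign held for all 19 in every setting in which they were tested. Counts moved widely. DESeq2 called 203 raised and 94 lowered genes, of which 146 and 22 were changed by at least 0.5 log2 in each tissue, and the mean of the 3 tissue effects in a fit of 6 group means called 469 and 316 (131 and 16). Limma-voom, with or without a random block of genotype and number, called 18 and 21 (16 and 7), and limma on the mean of 3 tissues per number called 60 and 13 (33 and 4). With no filter, or with at least 1 CPM asked for in each tissue, the lowered count was 0, and with Xist as covariate 12 and 0 passed, of which 11 reached 0.5 log2 in each tissue. With a replicate block within tissues 4 raised and 0 lowered genes were called, and with a replicate block across tissues 7 and 0, each of them past 0.5 log2.

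Leaving out 1 library at a time gave 6 to 30 raised and 0 to 2 lowered genes (6 to 29 and 0 to 2 past 0.5 log2 in each tissue), with Ccne1 at 6.40 to 6.90 log2. The lowest count, 6, came without any 1 of the 3 kidney TA libraries, and the highest without lung CCNE-TA 3. Without lung CCNE-TA 1 and TA 3, 6 and 3 were called (6 and 2). Without liver 3 and 0 were called (3 raised past 0.5 log2) and Ccne1 stood at 6.46 log2 with an adjusted p of 0.0512; without kidney 6 and 1 (6 and 1), and without lung 30 and 3 (30 and 2). The settings added after seeing the data, without liver TA 2 and TA 3 or without kidney CCNE-TA 1 and lung CCNE-TA 1, each called 4 and 0, and all 4 passed 0.5 log2. With no size asked for, 1 lowered gene had the same sign in each tissue. Rbl2 and Srebf2 changed sign without liver, to 0.000526 and 0.0665 log2 from -0.48 and -0.39. The causes were not tested. Changes fell with transcript length in liver (Spearman -0.285 across 17004 genes, which are not independent) and rose in lung (0.112); an offset for length and GC left 21 raised and 1 lowered. Genes near 3 counts per library, such as Hemgn and Gm2083 in kidney, have little precision.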
